A study of Mus musculus with 4 samples.

Results

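The genes described here are 45 genes of DNA replication and of the passage from G1 into S phase, out of 30175 gene names on the array. They were chosen by name, as the spots whose gene name is one of a written list: the proteins that license and fire replication origins, the replicative polymerases, the sliding clamp and its loader, the single-strand binding protein, enzymes of nucleotide supply, histone deposition factors and 2 E2F transcription factors. All 45 were on the array, and each gene takes its value from its brightest probe. Of them, 44 were well above background on all 4 arrays, and the exception was *Pola2* on the 4 h array.

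Replication of the genome is prepared in G1, when the origin recognition complex, Cdc6 and Cdt1 load the ring-shaped MCM helicase onto origins, and it begins in S phase, when Cdc45 and the GINS complex join that helicase. Polymerase alpha-primase then lays primers, replication factor C (RFC) places the PCNA ring at them, and polymerases delta and epsilon copy the strands. Many of these genes are transcribed periodically, with E2F factors as known activators of their promoters. Fibroblasts that leave the cycle are known to carry less of these messages than growing cells.

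NIH-3T3:Per2-Luc cells, an immortalized mouse fibroblast line with a luciferase reporter driven by the *Per2* promoter, were exposed to 5 mM H2O2 for 10 min, which is called the cOS-pulse (critical oxidative stress). RNA was taken 4 h, 20 h and 32 h after the pulse, and the control cells received 0 mM H2O2 with fresh medium. Every group carried the reporter, and the cells were 1 line grown to confluence. Each of the 4 conditions was measured on 1 one-colour array, and the control was labelled 4 h only, so the 20 h and 32 h arrays had no control of their own hour and the late differences from it cannot be told apart from differences in time in culture.

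With 1 array per condition no statistical test was possible, and no p-value is given. A level is the log2 signal of the probe minus the 75th percentile of its array, and is comparable between arrays but not between genes. A log2 ratio is the difference of such levels between 2 arrays, and the value after ± is its spot error. The scanner software estimates this error for each spot, and it covers neither the culture nor the RNA. Differences between probes of 1 gene are not covered either, and at 4 h these reached 1.85 (*Prim2*), 1.74 (*Pole*) and 1.38 (*Gmnn*). A gene was called higher or lower when its ratio passed 2-fold. Over all genes the ratios between the 20 h and 32 h arrays had a robust spread of 0.14 (log2), which serves as the yardstick for small differences. All 3 ratios to the control share the same control array. In these bulk cultures, fewer cells in S phase and less RNA per cell cannot be told apart.

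Between 52.7% and 59.1% of the probes were well above background on each array, and no spot was saturated. All 10 fibroblast markers were well above background on every array, with a summed signal of 869 times the 75th percentile in the control, 762 at 4 h, 801 at 20 h and 820 at 32 h. At 4 h 9 of the 10 were below the control, with a median log2 ratio of -0.44, and *Pdgfra* and *Pdgfrb* were 2.92-fold and 2.56-fold lower. At 20 h *Col1a1*, *Col3a1* and *Thy1* were 2.08-fold, 2.02-fold and 2.62-fold lower. Of the epithelial markers only *Krt8* was above background on every array (*Cdh1*, *Epcam*, *Krt18* and *Krt19* on no array), and the 5 summed to 0.576 in the control and 1.25 at 4 h. The 4 endothelial markers (*Tie1* on no array) summed to between 3.22 and 4.29. The 5 immune markers, of which *Ptprc* and *Lyz2* were above background on no array, summed to 1.09 in the control, 2.89 at 4 h, 1.15 at 20 h and 1.20 at 32 h, and the part of any of these in the results was not tested.

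At 4 h after the cOS-pulse the replication genes were mostly low. Of the 45 genes, 26 (57.8%) were at least 2-fold lower than the control and 0 were 2-fold higher, where 8.26% of all 18506 genes with a ratio were 2-fold lower and 11.1% were 2-fold higher. The median log2 ratio of the 45 was -1.04, a 2.06-fold lower level, with a range from -2.05 to 0.51, and that of all genes was 0.22. Below the control, at any size of difference, were 39 of the 45 genes, against 36.3% of all genes, and 32 were at least 1.5-fold lower, against 16.3%. Of the 26, 15 passed 2-fold by more than their spot error, among them *Pola2*, whose value is a bound. That count was not made over all genes. When the arrays were scaled on the 8 spike-in probes, 16.5% of all genes were 2-fold lower and 5.88% higher, and 31 of the 45 replication genes were 2-fold lower.

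**Figure D1:**
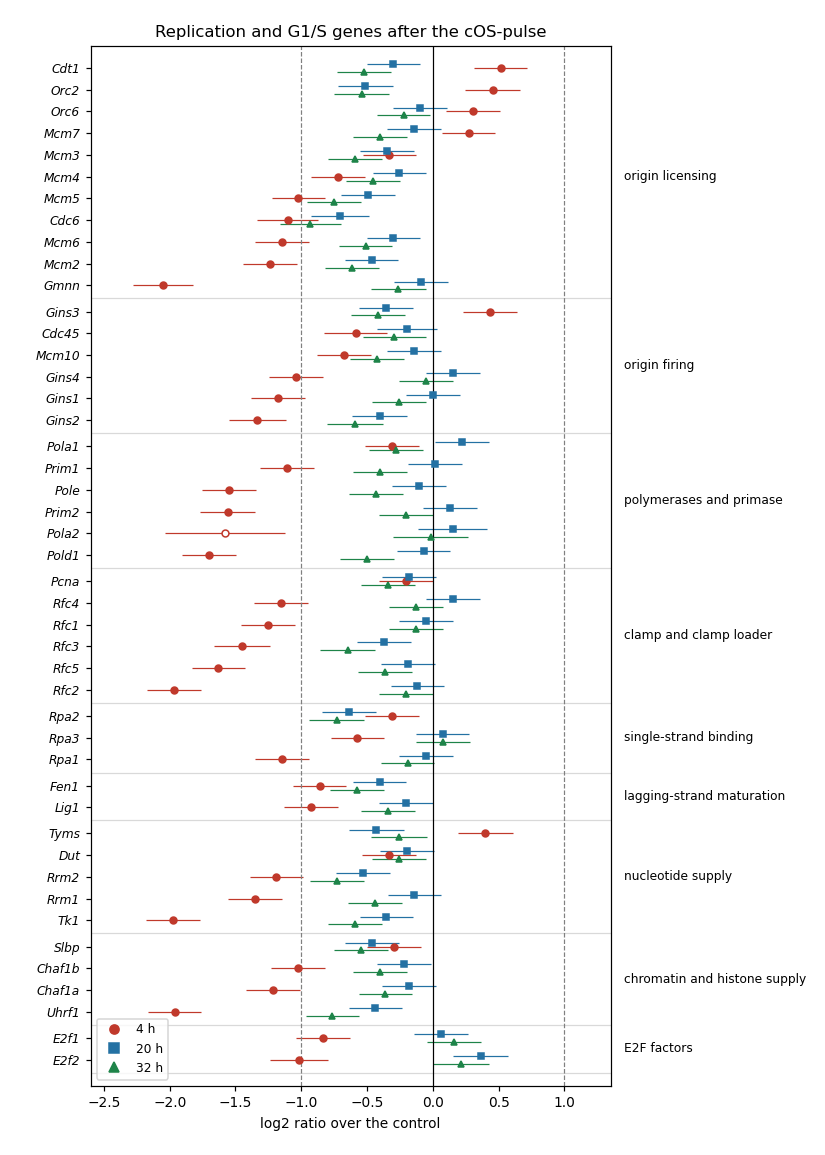
The log2 ratio over the control (x axis) of each of the 45 genes (y axis, grouped by role) at 4 h (red circles), 20 h (blue squares) and 32 h (green triangles), with bars for the spot error, dashed lines at 2-fold and an open circle for the bound of *Pola2*. At 4 h 26 genes lie at or beyond the lower dashed line, and at 20 h and 32 h none does; *Orc6*, *Mcm7* and *Tyms*, right of 0 at 4 h, fall below 0 under at least 1 other scaling of the arrays.

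**Figure D2:**
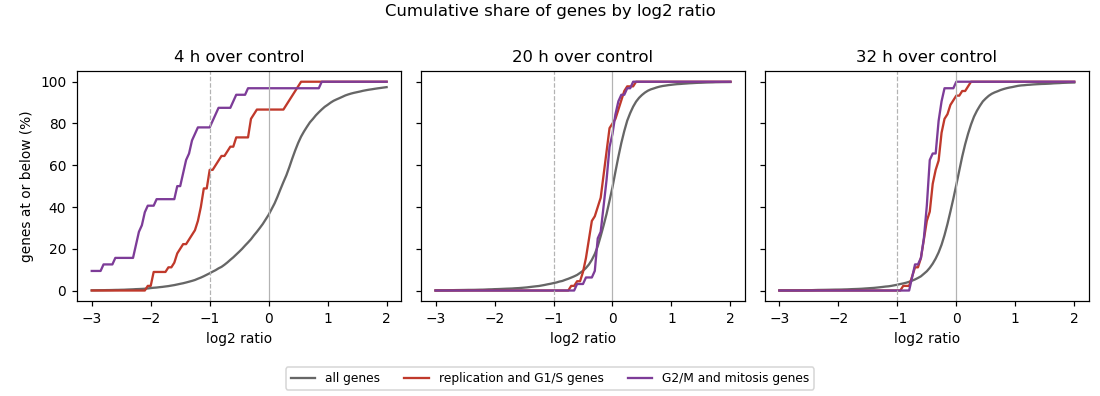
Cumulative share of genes in percent (y axis) at or below each log2 ratio over the control (x axis) for all genes (grey), the 45 replication and G1/S genes (red) and the G2/M and mitosis genes (purple), with 1 panel for each time. At 4 h the median was -1.04 for the replication genes and 0.22 for all genes, and at 20 h and 32 h the curves lie closer together.

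Origin licensing was split at 4 h: 5 of its 11 genes were 2-fold lower and 4 lay above 0, of which *Orc6* and *Mcm7* did not under every scaling. *Gmnn* encodes geminin, the inhibitor that binds Cdt1 and keeps origins from being licensed again, and its probe lies at chr13:24843715-24843774 (mm9, by the array's annotation). Its level was -0.72 in the control, -2.77 at 4 h, -0.81 at 20 h and -0.98 at 32 h. It had the lowest of the 44 measured ratios, 4.14-fold lower at 4 h (log2 ratio -2.05 ± 0.22), while the 20 h level lay within the spot error of the control. A second *Gmnn* probe gave -0.67. *Cdt1*, the licensing factor that geminin binds (probe at chr8:125096893-125096952), read 3.02 in the control, 3.54 at 4 h, 2.72 at 20 h and 2.50 at 32 h. Its 4 h ratio of 0.51 ± 0.20 was the highest of the 45 and stayed above 0 under each of the 5 other scalings, at 0.12 or more, without reaching 2-fold. On the 4 h array the ratios of *Cdt1* and *Gmnn* were 2.57 ± 0.30 apart, a difference that no shift of the whole array by 1 value can move. This gap is that of the brightest *Gmnn* probe, and the second probe, at -0.67, lay closer to *Cdt1*.

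*Cdc6*, the ATPase that recruits the helicase to the origin complex, read -1.91 in the control, -3.01 at 4 h, -2.62 at 20 h and -2.84 at 32 h. It fell 2.15-fold at 4 h (log2 ratio -1.10 ± 0.23, and -1.12 by a second probe). At 20 h and 32 h its ratios of -0.71 and -0.93 were the lowest of the 45 genes. The second probe gave -0.77 and -0.73, and its 32 h ratio was not below those of *Uhrf1* and *Mcm5*. The origin recognition subunits behaved otherwise at 4 h, with log2 ratios of 0.45 for *Orc2* and 0.31 for *Orc6*, and the latter was below 0 when arrays were scaled on the median of all probes or on the spike-in probes. Both were below the control at 20 h, at -0.51 and -0.10, and at 32 h, at -0.54 and -0.22.

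By their brightest probes the 6 subunits of the MCM helicase did not move as 1 block. *Mcm2* read 0.85 in the control, -0.38 at 4 h, 0.39 at 20 h and 0.24 at 32 h. *Mcm5* had levels of 0.85, -0.17, 0.36 and 0.099 in the same order, and *Mcm6* of 4.04, 2.90, 3.74 and 3.53. For these 3 genes the 4 h array was the lowest and the 32 h array the next lowest, with 4 h log2 ratios of -1.24 ± 0.20, -1.02 ± 0.20 and -1.14 ± 0.20. *Mcm4* (-0.72) and *Mcm3* (-0.33; -0.34 by a second probe) did not reach 2-fold. *Mcm7* read 3.17 in the control, 3.44 at 4 h, 3.03 at 20 h and 2.77 at 32 h, so that its 4 h array was the highest of the 4. Its 4 h ratio of 0.27 ± 0.20 turned to as low as -0.13 under 3 other scalings. On the 4 h array it lay 1.51 ± 0.29 above the ratio of *Mcm2* and 1.42 ± 0.29 above that of *Mcm6*. Each of these 3 genes had 1 probe, and gaps of this size also occurred between probes of 1 gene, up to 1.85 for *Prim2*.

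Origin firing, with 1 probe for each gene, showed the same kind of split. Of the 4 GINS subunits, which turn the loaded MCM ring into an active helicase, 3 were 2-fold lower at 4 h. *Gins1* read 0.18 in the control, -0.999 at 4 h, 0.18 at 20 h and -0.080 at 32 h, a 4 h log2 ratio of -1.18 ± 0.21. The levels of *Gins2* were -1.21, -2.54, -1.61 and -1.80 in that order, a ratio of -1.33 ± 0.21, and those of *Gins4* 0.71, -0.33, 0.87 and 0.66, a ratio of -1.04 ± 0.20. *Gins1* and *Gins4* were back at or above the control level at 20 h within their spot error, and *Gins2* was not. The other subunit, *Gins3*, read 5.08 in the control, 5.51 at 4 h, 4.72 at 20 h and 4.66 at 32 h. It was 0.43 ± 0.20 above the control at 4 h and above 0 under all 5 other scalings, by as little as 0.034, and its ratio on that array exceeded that of *Gins2* by 1.77 ± 0.30. *Cdc45*, which completes the helicase, and *Mcm10*, which helps to activate it, had 4 h ratios of -0.59 and -0.67.

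**Figure D3:**
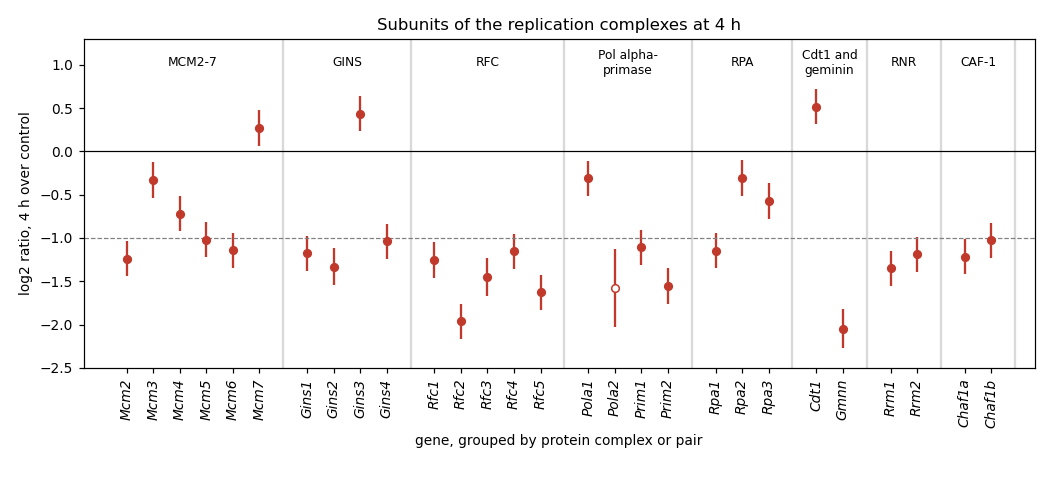
Log2 ratio of the 4 h array over the control (y axis) for the subunits of each replication complex or pair (x axis), with bars for the spot error, a dashed line at 2-fold and an open circle for the bound of *Pola2*. By their brightest probes the 5 RFC subunits all lie between -1.96 and -1.15. *Mcm7*, *Gins3* and *Cdt1* lie above 0, and their partners reach -1.24, -1.33 and -2.05. *Mcm7* falls below 0 under 3 other scalings.

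By the brightest probes the polymerases and the primase were the role with the lowest median at 4 h (-1.55), and 5 of its 6 genes were 2-fold lower. The clamp and clamp loader came next at -1.35. The lowest median rests on *Prim2* and *Pole*, whose other probes differed, as given below. *Pold1*, the catalytic subunit of polymerase delta, read 1.13 in the control, -0.57 at 4 h, 1.06 at 20 h and 0.63 at 32 h. *Pole*, that of polymerase epsilon, read 1.42, -0.12, 1.32 and 0.99. Each was low at 4 h, with log2 ratios of -1.70 ± 0.20 and -1.55 ± 0.20, and within its spot error of the control at 20 h. The other 2 *Pole* probes gave -1.99 and -0.25.

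Among the subunits of polymerase alpha-primase, *Prim1*, the catalytic primase, read 1.88 in the control, 0.78 at 4 h, 1.90 at 20 h and 1.48 at 32 h, a 4 h ratio of -1.11 ± 0.20. *Prim2*, the large primase subunit, read -0.13, -1.69, 0.0028 and -0.34. Its 4 h ratio was -1.56 ± 0.21, but a second probe gave 0.29, and the 2 probes of this gene therefore disagree in direction. *Pola2*, the accessory subunit, read -3.36 in the control, -5.09 at 4 h, -3.21 at 20 h and -3.38 at 32 h. It was not well above background at 4 h, so its level there was at least 2.99-fold lower than the control. The catalytic subunit *Pola1* read -0.096, -0.41, 0.13 and -0.38, and its 4 h ratio of -0.31 ± 0.21 was the highest of the role. At 20 h the ratios of the 4 genes ran from 0.02 to 0.22, of which 1, that of *Pola1*, exceeded its spot error, and the second *Prim2* probe gave -0.40.

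By their brightest probes the clamp and its loader differed from each other. *Pcna*, the sliding clamp, read 4.54 in the control, 4.34 at 4 h, 4.36 at 20 h and 4.20 at 32 h. Its 4 h ratio was -0.20 ± 0.20, and between -0.33 and -0.60 under the 5 other scalings. All 5 subunits of RFC, the loader that opens the clamp, were 2-fold lower at 4 h. *Rfc2* read 1.18 in the control, -0.78 at 4 h, 1.07 at 20 h and 0.98 at 32 h, which at 4 h was 3.90-fold lower (log2 ratio -1.96 ± 0.21, probe at chr5:135073809-135073868) and 1.76 ± 0.29 below the ratio of *Pcna* on that array. *Rfc5* read 2.27, 0.64, 2.08 and 1.91, a ratio of -1.63 ± 0.20, where a second probe gave -0.32. *Rfc3* read -1.21, -2.66, -1.58 and -1.85, a ratio of -1.45 ± 0.21. The 20 h levels of *Rfc2* and *Rfc5* were within their spot error of the control and that of *Rfc3* was not. *Rfc1*, the large subunit, read 2.58, 1.33, 2.53 and 2.46, a ratio of -1.25 ± 0.20. *Rfc4* read 1.16, 0.0037, 1.31 and 1.03, a ratio of -1.15 ± 0.20 (-1.21 by a second probe). No other complex of more than 2 genes in the set was 2-fold lower in every subunit.

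Replication protein A, which coats single-stranded DNA, had 1 of its 3 subunits past 2-fold. *Rpa1* read 3.47 in the control, 2.32 at 4 h, 3.42 at 20 h and 3.28 at 32 h, a 4 h ratio of -1.15 ± 0.20, and a second probe gave -1.28. *Rpa2* read -0.96, -1.28, -1.60 and -1.69, with ratios of -0.31 ± 0.21 at 4 h, -0.64 at 20 h and -0.73 at 32 h. Which of its arrays was the lowest depended on the scaling, since spike-in scaling gave -0.71, -0.44 and -0.58. *Rpa3* had a 4 h ratio of -0.57. The 2 genes of lagging-strand maturation came close to the threshold without passing it. The ligase *Lig1* read 2.41, 1.48, 2.20 and 2.07, a 4 h ratio of -0.92 ± 0.20, and the flap endonuclease *Fen1* read 3.34, 2.48, 2.93 and 2.76, a ratio of -0.86 ± 0.20.

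In nucleotide supply, *Tk1*, the thymidine kinase of dividing cells (probe at chr11:117676845-117676904), read 1.69 in the control, -0.28 at 4 h, 1.34 at 20 h and 1.10 at 32 h. It was 3.93-fold lower at 4 h (log2 ratio -1.97 ± 0.20), and a second probe gave -1.48. The subunits of ribonucleotide reductase, which makes deoxyribonucleotides, fell together at 4 h, *Rrm1* from 2.64 to 1.29 (-1.35 ± 0.20) and *Rrm2* from 2.55 to 1.36 (-1.19 ± 0.20). At 20 h and 32 h *Rrm1* read 2.50 and 2.20, and *Rrm2* read 2.02 and 1.81. *Tyms*, the thymidylate synthase, read -1.60 in the control, -1.20 at 4 h, -2.02 at 20 h and -1.85 at 32 h. Its 4 h ratio was 0.40 ± 0.21, and -0.0012 with spike-in scaling, and on the 4 h array it exceeded that of *Tk1* by 2.37 ± 0.29. *Dut*, which removes dUTP, had a 4 h ratio of -0.33, with 0.16 by its second probe.

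Of the chromatin and histone genes, *Uhrf1*, which brings the maintenance DNA methyltransferase to newly copied DNA, read 1.96 in the control, -0.00097 at 4 h, 1.53 at 20 h and 1.20 at 32 h. It was 3.90-fold lower at 4 h (log2 ratio -1.96 ± 0.20), and its second probe gave only a bound. The 2 CAF-1 subunits, which place histones on new DNA, were also low at 4 h. *Chaf1a* read 0.24, -0.97, 0.061 and -0.12 (4 h ratio -1.22 ± 0.21), and *Chaf1b* read 2.14, 1.11, 1.92 and 1.74 (-1.03 ± 0.20, and -1.08 by a second probe). *Slbp*, which binds the stem-loop of histone messages, read -0.25, -0.55, -0.71 and -0.80, with a 4 h ratio of -0.30 ± 0.21. Its level was below that at 4 h on both late arrays, but above it with spike-in scaling (ratios of -0.70, -0.26 and -0.39).

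The E2F activators were low at 4 h and the only role above the control on both late arrays. *E2f2* read -1.91 in the control, -2.92 at 4 h, -1.54 at 20 h and -1.69 at 32 h. Its 4 h ratio of -1.01 ± 0.22 was just past 2-fold, and its 20 h ratio of 0.37 was the highest of the 45 genes at that time. *E2f1* read 0.73, -0.10, 0.80 and 0.90, with ratios of -0.84 ± 0.20 at 4 h, 0.06 at 20 h and 0.16 at 32 h, the last 2 within its spot error. Both genes kept these late signs under the 5 other scalings.

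The threshold ran through a dense stretch of values. Just inside it at 4 h lay *E2f2* (-1.01), *Mcm5* (-1.02), *Chaf1b* (-1.03) and *Gins4* (-1.04), and just outside lay *Lig1* (-0.92) and *Fen1* (-0.86). Of the 26 lower genes, 17 had 1 measured probe. In 5 of the remaining 9 every other measured probe was also 2-fold lower. Across the 45 genes the 4 h ratio had a Spearman correlation of -0.15 with gene length, -0.14 with probe GC content and 0.12 with the control level, given as a description over genes that share the same 2 arrays.

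At 20 h none of the 45 genes was 2-fold lower (3.56% of all 16963 genes with a ratio) or 2-fold higher (1.46%). The median log2 ratio was -0.19, against 0.0037 for all genes, and 36 of the 45 were below 0, where 49.5% of all genes were. Of the 26 genes that had been lower at 4 h, 15 were within their spot error of the control at this scaling. The quartiles of all genes, -0.21 and 0.19, were of about the size of that error. The same count over all genes was not made. At least 1.5-fold lower were *Cdc6* and *Rpa2*, 2 of 45, against 7.79% of all genes. The sign of the median depended on the scaling, at 0.0061 with spike-in scaling and 0.14 without scaling, where the median of all genes moved up with it. Between the 4 h and the 20 h array, 19 of the 45 (42.2%) were at least 2-fold higher at 20 h and 0 lower, against 9.37% of all genes higher and 15.1% lower. With spike-in scaling 32 of the 45 were higher and 0 lower, against 23.1% and 6.43% of all genes. The measured gaps ran from -0.97 for *Orc2* to 1.85 for *Rfc2* and 1.96 for *Gmnn*, and that of *Pola2* was known only to be at least 1.73.

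At 32 h none was past 2-fold in either direction (2.77% of all 16894 genes lower, 2.24% higher), but the genes lay further below the control than at 20 h. The median was -0.40, against -0.0045 for all genes, and 42 of 45 were below 0, where 50.6% of all genes were. At least 1.5-fold lower were 10 of the 45 (22.2%), against 7.13% of all genes. They were *Cdc6* (-0.93), *Uhrf1* (-0.76), *Mcm5* (-0.75), *Rrm2* and *Rpa2* (both -0.73), *Rfc3* (-0.65), *Mcm2* (-0.61), *Gins2*, *Tk1* and *Mcm3* (all -0.59). All 11 licensing genes were below the control at 32 h, and each was so under the 5 other scalings. The 3 genes above the control were *E2f2* (0.22), *E2f1* (0.16) and *Rpa3* (0.08).

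The 2 late arrays differed by little for each gene but almost always in the same direction. At 20 h, 42 of the 45 genes (93.3%) were above their 32 h level, against 52.2% of all genes. The median ratio of 20 h over 32 h was 0.18, or 1.13-fold, where that of all genes was 0.0074, and 33 genes exceeded the spread of 0.14. That spread comes from the same 2 arrays and is smaller than the spot error of each of these ratios. The same count over all genes was not made. *Pola1* had the largest difference, 0.51 ± 0.20, followed by *Pold1* (0.43), *Prim1* (0.42), *Prim2* (0.34) and *Pole* with *Uhrf1* (both 0.33). By the brightest probes the polymerases and primase thus led, with a median of 0.38 over 6 genes. Other probes gave 0.026 for *Prim2*, 0.29 and a bound of 0.0091 for *Pole*, and a bound of 0.021 for *Uhrf1*. The exceptions were *Tyms* (-0.17), *E2f1* (-0.10) and *Rpa3* (-0.0043). Over all settings tried, between 41 and 44 genes were higher at 20 h. None of the 45 reached 2-fold between these arrays, as 0.947% of all genes did upward and 2.11% downward.

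**Figure D4:**
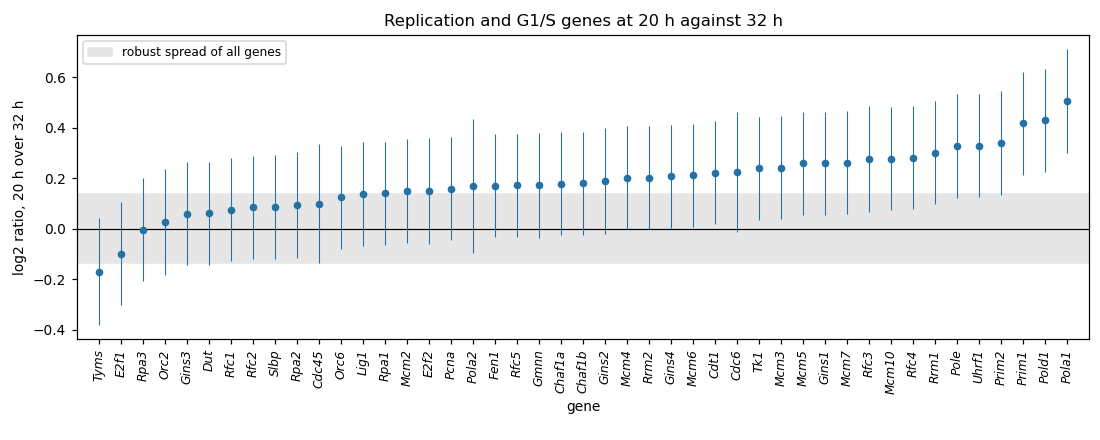
Log2 ratio of the 20 h array over the 32 h array (y axis) for each of the 45 genes (x axis, in order of the ratio), with bars for the spot error and a grey band for the robust spread of all genes (0.14 to either side of 0). In all, 42 points lie above 0 and 33 above the band, from -0.17 for *Tyms* to 0.51 for *Pola1*.

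Considered over all 4 arrays, 26 of the 45 genes ran in the order control, 20 h, 32 h and 4 h from high to low. The 4 h array was the lowest for 35 genes, the 32 h array for 9 and the 20 h array for 1, which was *Tyms*. The control array was the lowest for none. These counts rest on the same ratios as those given above, and the same counts over all genes were not made. With spike-in scaling 16 genes ran in this order and the 4 h array was the lowest for 40, and without scaling 12 genes ran in this order and the 4 h array was the lowest for 39.

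A wider list of the same biology held a smaller share of low genes at 4 h. It held 60 other replication and G1/S genes, of which 59 were on the array and 57 had a ratio (*E2f6* and *Ccne2* had none). At 4 h 19 of the 57 (33.3%) were 2-fold lower and 2 were higher, with a median of -0.64. Lowest was *Ccna2*, the S phase cyclin (-2.74 ± 0.21). Past 2-fold among the polymerase and clamp loader genes were *Dscc1* (-2.57), *Pole2* (-2.41), *Pold2* (-1.85), *Chtf18* (-1.66), *Atad5* (-1.50) and *Pold3* (-1.11). *Pole3* (0.28), *Pole4* (0.33) and *Pold4* (-0.056) were not lower by that much. Regulators of the G1/S switch past 2-fold were *Rbl1* (-2.28), *E2f8* (-2.16), *E2f7* (-1.73), *Tfdp2* (-1.47), *Rbl2* (-1.15) and *Cdk2* (-1.13). Others lay above 0, among them *E2f3* (0.82), *Tfdp1* (0.48), *E2f5* (0.45) and *Rb1* (0.40). Over the whole list 40 of the 57 genes were below 0 at 4 h and 17 above. The fork protection genes *Timeless* and *Clspn* had ratios of -1.83 and -1.70, the histone chaperone *Asf1b* of -1.62, the maintenance methyltransferase *Dnmt1* of -1.05, and the origin subunits *Orc3* and *Orc5* of -1.34 and -1.04. Unlike *Orc2* and *Orc6*, these origin subunits were thus 2-fold lower at 4 h, though *Orc5* did not pass 2-fold by more than its spot error of 0.24. The origin subunits *Orc1* (-0.099) and *Orc4* (0.62) were not 2-fold lower. Higher at 4 h was *Top1*, the topoisomerase that relaxes DNA ahead of the fork (1.37). Past 2-fold on the late arrays were the deoxycytidylate deaminase *Dctd* (-1.11 at 20 h, and not well above background at 32 h, where it was at least 2.61-fold lower) and *Cdca7* (-1.06 at 32 h), with medians of the list of -0.15 and -0.33.

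For comparison, of 32 G2/M and mitosis genes with a ratio, 25 (78.1%) were 2-fold lower at 4 h, with a median of -1.52. Their medians were -0.11 at 20 h and -0.48 at 32 h, and all 32 were higher at 20 h than at 32 h, by a median of 0.36. Whether these lists differed from the 45 replication genes could not be tested with 1 array per condition.

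The promoters of the 45 genes were read for letters bound by E2F factors. The genes were chosen by name and not by these letters. E2F factors are known activators of many of them, however, so a high share is not a separate finding. RefSeq (GRCm38.p6) gave a window from 250 bases before to 50 bases after the start for 37 of the 45, and not for *Gmnn*, *Mcm4*, *Gins1*, *Gins2*, *Gins4*, *Prim2*, *Pole* and *Rfc2*. The letters TTTCCCGC, TTTCGCGC, TTTGCCGC or TTTGGCGC, on either strand, were present for 13 of the 37 genes (35.1%), against 4.21% of the 10266 genes with a promoter and a 4 h ratio. Counted by window, 13 of the 44 windows of these genes (29.5%) held them, against 2.26% of all 32851 promoters of that length. By gene, so did 19 of 47 genes (40.4%) of the wider list and 1 of 30 G2/M genes (3.33%). The letters CCAAT, on either strand, were present for 24 of the 37 (64.9%), against 41.1% of all genes with a promoter and 24 of 30 G2/M genes. Below are the 190 bases before the start of 6 of the 13 genes, 4 that were 2-fold lower at 4 h (*Mcm5*, *Mcm6*, *Cdc6*, *Uhrf1*) and 2 that were above 0 (*Gins3*, and *Mcm7*, which was not under every scaling), chosen after their values were seen, to show that the same letters stand before genes of either kind. Capitals mark the E2F letters on either strand, which in *Mcm5* and in *Mcm6* overlap as a pair on opposite strands. Each is written 5′ to 3′ on the strand of the gene.
*Mcm5*, chr8:75109319-75109508, plus strand: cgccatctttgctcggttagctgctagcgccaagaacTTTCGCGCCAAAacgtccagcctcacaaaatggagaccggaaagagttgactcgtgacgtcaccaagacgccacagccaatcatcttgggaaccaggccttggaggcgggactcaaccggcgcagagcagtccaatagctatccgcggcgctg
*Mcm6*, chr1:128359706-128359895, minus strand: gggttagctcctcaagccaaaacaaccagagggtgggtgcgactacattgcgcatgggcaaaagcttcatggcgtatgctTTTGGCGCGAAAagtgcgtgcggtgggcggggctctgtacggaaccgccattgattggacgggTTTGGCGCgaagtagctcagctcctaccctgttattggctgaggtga
*Cdc6*, chr11:98907961-98908150, plus strand: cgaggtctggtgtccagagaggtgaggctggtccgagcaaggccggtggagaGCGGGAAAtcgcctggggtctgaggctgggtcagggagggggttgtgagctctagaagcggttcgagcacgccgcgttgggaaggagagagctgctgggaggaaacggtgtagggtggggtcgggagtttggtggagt
*Uhrf1*, chr17:56304123-56304312, plus strand: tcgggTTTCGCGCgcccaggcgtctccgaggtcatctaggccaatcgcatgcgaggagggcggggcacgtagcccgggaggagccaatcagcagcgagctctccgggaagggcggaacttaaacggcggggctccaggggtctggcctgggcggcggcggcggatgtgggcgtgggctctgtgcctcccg
*Mcm7*, chr5:138171884-138172073, minus strand: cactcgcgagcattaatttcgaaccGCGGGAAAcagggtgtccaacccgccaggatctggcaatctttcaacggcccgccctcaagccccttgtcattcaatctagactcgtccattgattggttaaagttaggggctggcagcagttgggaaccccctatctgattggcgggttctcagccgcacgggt
*Gins3*, chr8:95633369-95633558, plus strand: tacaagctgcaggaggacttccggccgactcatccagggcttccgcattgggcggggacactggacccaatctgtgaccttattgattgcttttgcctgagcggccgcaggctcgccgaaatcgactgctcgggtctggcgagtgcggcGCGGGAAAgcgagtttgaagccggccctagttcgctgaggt
The first match began 153 bases before the start in *Mcm5*, 110 in *Mcm6*, 138 in *Cdc6*, 185 in *Uhrf1*, 165 in *Mcm7* and 41 in *Gins3*. A match is a description of the letters, not a bound site or a cause.

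Genes with these letters and genes without them overlapped widely in their 4 h ratio. The genes without a window, all of which except *Mcm4* were 2-fold lower at 4 h, are not part of this comparison. The 13 genes with a match had a median of -1.01, and 7 were 2-fold lower. The 24 without a match had a median of -0.94, and 12 (50%) were 2-fold lower. Those with a match ran from *Uhrf1* at -1.96 to *Cdt1* at 0.51, and those without from *Tk1* at -1.97 to *Orc2* at 0.45. Over all 10266 genes with a promoter and a ratio, 13.0% of the 432 with the letters and 9.66% of the others were 2-fold lower.

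**Figure D5:**
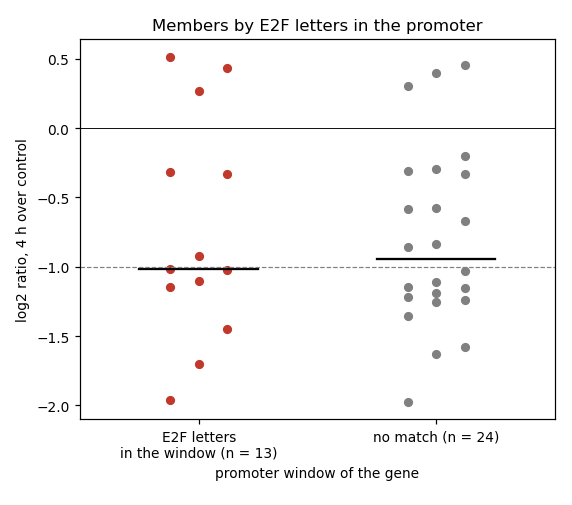
Log2 ratio of 4 h over control (y axis) for 13 genes with E2F letters in the promoter window and 24 without (x axis). Each point is 1 gene, with black lines for the medians and a dashed line at 2-fold. Genes without a promoter window are not shown. The medians of -1.01 and -0.94 lie side by side, and both sets span from near -2 to above 0, where *Mcm7* of the first set and *Orc6* and *Tyms* of the second turn below 0 under at least 1 other scaling.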

How the data were processed

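The authors hybridized Cy3-labelled RNA to Agilent one-color Mouse GE 4x44K v2 arrays and deposited, for each spot, an intensity from Agilent Feature Extraction 10.7.3.1 that was background-subtracted and detrended but not normalized between arrays. Their deposited table of processed values holds the same intensities over 1 constant per array. All 4 arrays were on 1 slide.

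From the deposited intensities, log2 values of spots without an outlier flag were averaged per probe (39429 probes) and expressed relative to their array's 75th percentile. A gene took its brightest probe over the 4 arrays. Detection required that 50% or more of a probe's spots carried the well-above-background flag. With detection on both arrays the ratio was a measurement. With detection on 1, it was a bound, for which the undetected array took its own signal or its lowest detected signal, whichever was higher. With neither, no ratio was given. The error was propagated from the scanner's spot error (about 10.1% of the signal). Gene names are those of the array design. No column of other samples was met.

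The members and lists were chosen with earlier results of these data known. Full values were given for each member past 2-fold at any time and for the largest and smallest 4 h ratio of each role, and of the wider list for genes past 2-fold, of which 1 is not reported here. Alternatives covered the scaling between arrays, background correction (normexp with offset 50, limma 3.58.1 in R 4.3.3), detection, flags, probes of a gene, the deposited table and the threshold (1.5-fold and 3-fold). A trend in probe GC content and the spike-ins without 1 probe were added after seeing the data. Computation used Python 3.11.15, numpy 2.4.6, pandas 2.3.3, scipy 1.17.1 and matplotlib 3.10.9, and the scripts were tested on simulated data. The study's paired test (SAM) was not run, since no condition had more than 1 array. The number of arrays limits the precision.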

Additional observations from a re-analysis of the deposited data

How the results depend on the processing

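No paired analysis was possible because each condition had 1 array. The number of the 45 genes at least 2-fold lower at 4 h was 26. Under the alternatives that kept the 2-fold threshold it was lowest, 22, with normexp background correction. It was highest, 31, with scaling on the median of all probes or on the spike-in probes. The shares of all genes that were lower were 5.01%, 15.4% and 16.5% under these 3 settings, against 8.26% in the main one. It was 32 of the 45 at 1.5-fold and 6 at 3-fold, against 16.3% and 2.65% of all genes. At 1.5-fold, 2 genes were lower at 20 h and 10 at 32 h, against 7.79% and 7.13% of all genes. The 4 h median of the 45 log2 ratios was -1.40 with scaling on the median of all probes, -1.44 with spike-in scaling, -1.44 with 1 spike-in probe fewer, and -1.32 without scaling. The median at 20 h turned to 0.0061 with spike-in scaling and to 0.14 without scaling. The median at 32 h was -0.25 with spike-in scaling and -0.22 without scaling. For 20 h over 32 h it was 0.33 without scaling. For 20 h over 4 h it was 1.27 with median scaling, 1.40 with spike-in scaling, 1.28 with 1 spike-in probe fewer and 1.42 without scaling. These 4 scalings shift every gene of an array by 1 value, and the median of all genes at 4 h moved with them, from 0.22 to as low as -0.17. A shift of each array by 1 value leaves the median of the 45 relative to all genes nearly unchanged by construction, so such scalings hardly check it. Except without the detection filter, this relative median lay between -1.27 and -1.14 at 4 h. It lay between -0.21 and -0.15 at 20 h, and -0.42 and -0.36 at 32 h. Without the filter it was -1.13, -0.021 and -0.46. There the medians of the 45 were unchanged, and those of all genes were 0.095, -0.17 and 0.055. Why the latter moved was not tested. Of the summary values under alternatives, 177 moved by less than the single-gene spread of 0.14 or stayed within 1.5 times the count. That spread is a lenient measure for a median, and the 177 include counts of 0 that stayed at 0. Of single-gene ratios 1509 moved by less than their spot error and 245 by more, with 0 reversals among those past 2-fold. Signal over background limits *Pola2* at 4 h to a bound.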
